A study of Mus musculus with 3 samples.

Results

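The S100 and annexin genes were the 26 genes of the count table with the symbol S100a or Anxa followed by a number, or S100b, of 21782 genes in all. They comprised 14 S100 genes and 12 annexin genes, and no measured value was used to choose them. RNA-seq was done on asynchronous primary mouse embryonic fibroblasts (MEFs), cells that grow out of dissociated embryos, here of embryonic day 12.5 and cultured in DMEM with 20% FBS. All 3 libraries carried the WT genotype and no treatment, with 1 polyA-selected library from each of 3 clones, so no conditions were compared and the values describe levels and the spread between clones. The study itself concerned where cohesin binds in MEFs. No source says that the clones came from separate embryos, and the strain of the mice is not given in the sources used here.

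S100 proteins are small calcium-binding proteins made of a pair of EF-hand motifs, which mostly work as dimers and, on binding calcium, expose a surface that grips a target protein. Annexins bind negatively charged membrane phospholipids when calcium rises, through a core of repeats, and take part in membrane repair, exocytosis and the coupling of membranes to cortical actin. The families meet in complexes such as that of S100A10 with annexin A2 and that of S100A11 with annexin A1, and several members are abundant in fibroblasts.

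Of these genes, 16 reached 1 CPM (counts per 1000000 counts, library sizes scaled by TMM) in every clone, which is 61.5% of the members, against 52.2% of all genes of the table. The expressed genes were 7 S100 genes (S100a1, S100a4, S100a6, S100a10, S100a11, S100a13 and S100a16) and 9 annexin genes (Anxa1 to Anxa8 and Anxa11). Their median level was 231 CPM, against 25.7 CPM for all expressed genes of the table, with no correction for length. Levels spread widely: 10 members had a mean of at least 100 CPM, and S100a2, S100a9 and Anxa10 had no counts in any clone. S100 genes took 0.266% (95% Wilson interval 0.264 to 0.268), 0.302% (0.299 to 0.304) and 0.246% (0.245 to 0.248) of all counts in clones 1, 2 and 3, a mean of 0.271% ± 0.0279 (SD, n = 3). Annexin genes took 0.437% (0.435 to 0.440), 0.462% (0.459 to 0.465) and 0.473% (0.470 to 0.476), a mean of 0.457% ± 0.0183 (SD, n = 3). The intervals do not overlap between clones in either family, so these shares of unscaled totals differed by more than counting error, which is all the intervals cover. TMM scaling (factors of 0.984, 0.998 and 1.02 for clones 1, 2 and 3) was not applied to the shares. The annexin shares of clones 2 and 3 differ by little more than these factors do, so whether they differ after scaling was not tested. The order of the clones in the unscaled shares was not the same in both families: clone 2 was highest for S100 genes and clone 3 for annexin genes.

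**Figure D1:**
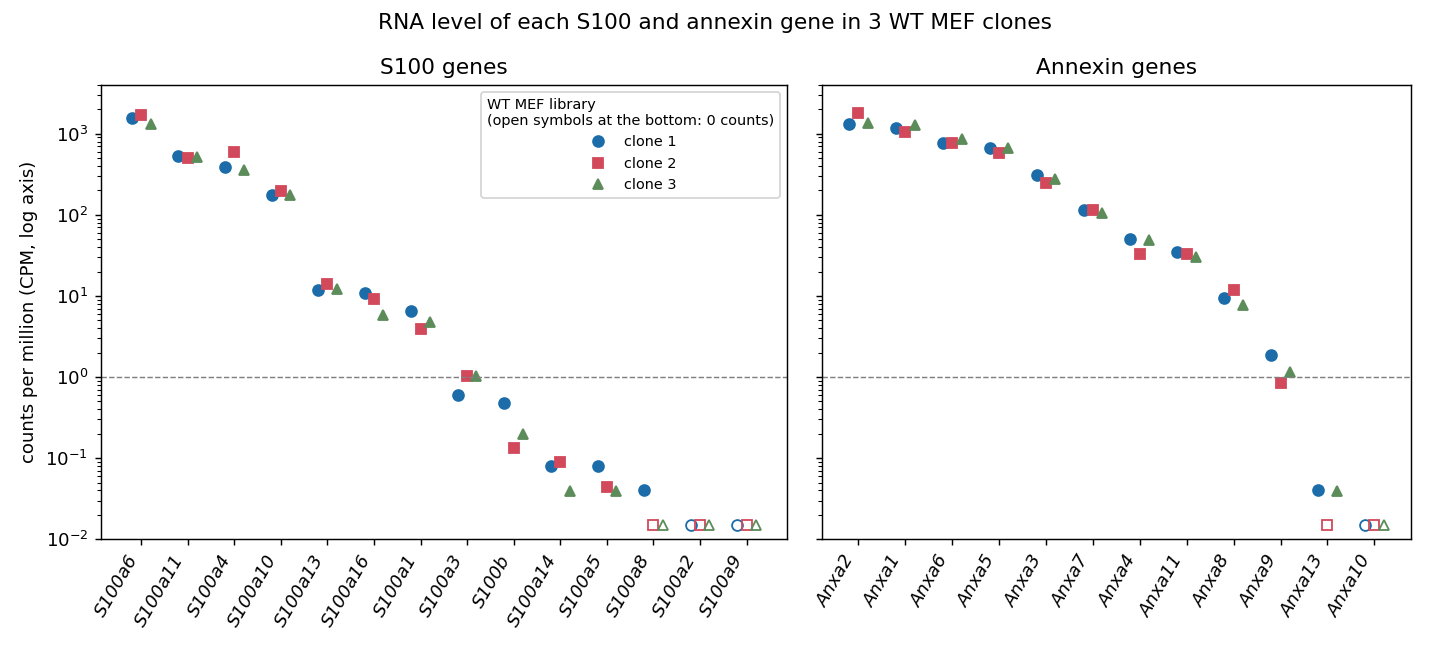
Level of each of the 26 genes in CPM (log axis) in clones 1, 2 and 3, with S100 genes on the left and annexin genes on the right, ordered by mean. Open symbols at the bottom mark 0 counts and the dashed line marks 1 CPM. For the 10 genes over 100 CPM the clones differ by up to 1.65-fold (S100a4), which looks small on the log axis, and the lowest genes fall to single counts.

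The libraries held 25261357, 22594316 and 24791198 counts in clones 1, 2 and 3, where 1 count is 0.0402, 0.0443 and 0.0396 CPM. All 9 fibroblast markers examined, among them Col1a1 and Vim, were expressed in every clone. The clones also differed in 2 other ways that go along with some values given here. All 9 macrophage markers in the table were highest in clone 2, with a summed level of 344, 1631 and 282 CPM in clones 1, 2 and 3. All 6 proliferation markers were lowest in clone 1 and highest in clone 2 (368, 723 and 609 CPM in sum), and the 3 arrest genes Cdkn1a, Cdkn2a and Cdkn2b were highest in clone 1 (587, 411 and 464 CPM). In bulk RNA, a change in the number of cells of a type and a change in RNA per cell cannot be told apart.

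S100a6, which encodes calcyclin, a protein abundant in fibroblasts and proliferating cells, had the highest counts of its family. It reached 1576, 1708 and 1336 CPM in clones 1, 2 and 3, a mean of 1540 ± 189 CPM (SD, n = 3), and 58 genes of the table had a higher mean. S100a11, whose product is a partner of annexin A1, had 531, 497 and 524 CPM (517 ± 17.98). Relative to its mean, this was the narrowest spread among the abundant S100 genes. S100a4, long used as a fibroblast marker and encoding a partner of non-muscle myosin IIA, had 393, 593 and 360 CPM (449 ± 127). Clone 2 lay above both other clones for S100a4, while for S100a11 all 3 clones lay within 1.07-fold of each other. S100a10, which encodes the annexin A2 partner that binds without calcium, had 177, 195 and 176 CPM (183 ± 10.8).

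The other expressed S100 genes had far fewer counts. S100a13, whose product takes part in the export of FGF1 without a signal peptide, had 11.7, 14.2 and 12.2 CPM (12.7 ± 1.31, SD, n = 3). S100a16, a widely expressed member, had 10.8, 9.27 and 5.74 CPM (8.61 ± 2.61), with clone 3 the lowest. S100a1, best known in heart and skeletal muscle, had 160, 88 and 121 counts, or 6.44, 3.90 and 4.79 CPM (5.04 ± 1.29), with clone 1 the highest. Of 6 striated muscle markers, 3 were expressed, with sums over the list of 209, 206 and 229 CPM. Of 5 cartilage markers 3 were expressed, led by Col2a1, with sums of 794, 548 and 775 CPM. In the muscle list, Myod1 and Myog had at most 4 and 10 counts in any clone. Des (71.6, 31.1 and 96.5 CPM) was lowest in clone 2, as was S100a1, and so was Tnnt2 (mean 7.11 CPM) by a smaller margin. Acta1 (130, 169 and 122 CPM) was highest in clone 2, so the similar muscle sums hide opposite differences. S100a1 and the cartilage sum were both lowest in clone 2, but the list went both ways, since Sox9 (9.26, 12.8 and 10.7 CPM) and Acan (45.1, 45.5 and 39.8 CPM) were highest there. The relation of the muscle and cartilage genes to S100a1 was not tested.

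The remaining 7 S100 genes stayed below 1 CPM in at least 1 clone. S100a3, best known from the hair cuticle, had 15, 23 and 26 counts, or 0.604, 1.02 and 1.03 CPM. S100b, an astrocyte and Schwann cell gene, had 12 counts in clone 1 (exact Poisson interval 6.20 to 21.0), 3 in clone 2 and 5 in clone 3, and the glial marker Gfap had 1, 0 and 1 counts while Sox10 had 5, 10 and 14. S100a14, an epithelial gene, had 2, 2 and 1 counts, S100a5 had 2, 1 and 1, and S100a8 had a single count in clone 1. S100a2 and S100a9 had none, where absence of counts leaves room, as a one-sided 95% limit, for a level of up to 3 counts, or 0.121, 0.133 and 0.119 CPM for the 3 clones in turn. S100A8 and S100A9 form calprotectin, the main calcium-binding complex of neutrophils. Of the 7 neutrophil markers in the table, Elane, Ltf and Ngp had no counts in any clone, Mpo and Camp had at most 2, and Cxcr2 alone passed 1 CPM in every clone (215, 168 and 145 counts). Among 8 epithelial markers, only Krt18 was expressed.

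Among the annexins, Anxa2, which encodes the partner of S100A10 at the plasma membrane and on endosomes, had the highest counts: 1333, 1801 and 1363 CPM in clones 1, 2 and 3, a mean of 1499 ± 262 CPM (SD, n = 3), with 63 genes of the table above it. Anxa1, whose product is induced by glucocorticoids and dampens inflammation, had 1168, 1050 and 1289 CPM (1169 ± 119). Clone 2 was thus the highest for Anxa2 and the lowest for Anxa1. Anxa6, which encodes the annexin with the longest core of repeats, had 766, 759 and 856 CPM (794 ± 54.0). Anxa5, whose product is used to stain phosphatidylserine on dying cells, had 659, 576 and 662 CPM (632 ± 48.8). Anxa3 had 310, 248 and 278 CPM (279 ± 30.6), again with clone 2 the lowest.

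The other annexins had fewer counts. Anxa7 encodes synexin, which aggregates secretory granules, and had 115, 115 and 106 CPM (112 ± 4.73, SD, n = 3). Relative to its mean, this was the second narrowest spread among the abundant members after S100a11. Anxa4, known from secretory epithelium, had 50.2, 33.2 and 49.2 CPM (44.2 ± 9.51), with clone 2 below both other clones. Anxa11, which tethers RNA granules to lysosomes, had 34.4, 32.8 and 30.5 CPM (32.6 ± 1.93). Anxa8, known from squamous epithelium, had 9.46, 11.9 and 7.80 CPM (9.73 ± 2.08), with clone 2 the highest. Anxa9 missed the expression limit in clone 2 alone, with 46, 19 and 29 counts, or 1.85, 0.843 and 1.15 CPM. Anxa13, known from intestine and kidney epithelium, had 1, 0 and 1 counts, and Anxa10, known from the stomach, had none.

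Some counts are uncertain because sequence is shared. Of the 86-base stretches of S100a11 transcripts, 49.8% match the transcripts of Gm12854, Gm7665 or Gm29240 with up to 2 mismatches. For S100a4, 53.3% match Gm42674, an annotated gene on the same strand that overlaps 51.7% of its exon length. For Anxa11 the share is 26.5%, with Gm2260, Gm2274 and Anxa11os, and for S100a3 it is 10.05%. For Anxa2, 2.63% of the exon length lies opposite the exons of Gm16144, and since the counting is not stated to use strand, reads of the pair cannot be told apart. Overlaps with exons of other genes were also annotated for Anxa9 (4.53% of its exon length on the same strand and 3.42% on the opposite strand), Anxa3 (3.07%, same strand) and Anxa4 (1.61%, opposite strand). None of the genes that share sequence or exons with a member is in the count table under its GENCODE symbol. No such sharing was found for S100a6, S100a10, Anxa1, Anxa5 or Anxa6.

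Counts grow with transcript length, so levels of different genes were compared per kb of annotated exon. On this scale S100a6 (1127 ± 138 CPM per kb, SD, n = 3) and S100a11 (1012 ± 35.2) were not separated, the ratio being 1.11 and its direction the same in 2 of 3 clones. S100a11 and S100a4 (768 ± 217) were not separated either, but S100a6 and S100a4 were, with ratios of 1.71, 1.23 and 1.59 in clones 1, 2 and 3. Genes were called separated where the direction was the same in all 3 clones and the mean log2 ratio was over 2 SD. S100a4 was 4.98-fold above S100a10 (151 ± 8.94), which was 8.51-fold above S100a13 (17.8 ± 1.84), and both steps were separated, as was the 2.49-fold step from S100a13 to S100a1 (7.27 ± 1.86). S100a1 and S100a16 (5.33 ± 1.61) were not separated. S100a6, S100a11 and S100a4 held 36.4% ± 1.43, 33.1% ± 4.29 and 24.6% ± 4.35 of the family's level per kb, and S100a10 held 4.90% ± 0.267.

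For the annexins, the level per kb of exon was 402 ± 70.3 for Anxa2, 402 ± 41.0 for Anxa1 and 356 ± 27.5 for Anxa5, and Anxa2 was separated from neither Anxa1 nor Anxa5. Anxa1 and Anxa5 were separated, with ratios of 1.08, 1.11 and 1.19 in clones 1, 2 and 3. Anxa6 (271 ± 18.4) was 1.31-fold below Anxa5, and Anxa3 (76.5 ± 8.39) was 3.55-fold below Anxa6, both separated. Anxa7 (18.7 ± 0.789) was 4.09-fold below Anxa3 and 1.995-fold above Anxa4 (9.51 ± 2.05). Anxa4 and Anxa11 (7.87 ± 0.467) were not separated, and Anxa8 (5.18 ± 1.11) was 1.54-fold below Anxa11. Anxa2 took 25.97% ± 4.74 of the family's level per kb, Anxa1 25.9% ± 2.23, Anxa5 23.0% ± 1.70 and Anxa6 17.5% ± 0.793. With length taken from the longest coding transcript, in place of all exons, S100a6 stood 1.93-fold above S100a11, which was separated, and Anxa1 1.91-fold above Anxa5, whereas Anxa2 (1036 ± 181) and Anxa1 (698 ± 71.3) were still not separated, and Anxa5 and Anxa6 (1.14-fold) no longer were. Whether a leading gene stands apart from the next therefore depends on the length chosen, and the transcripts used in these cells were not measured here.

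**Figure D2:**
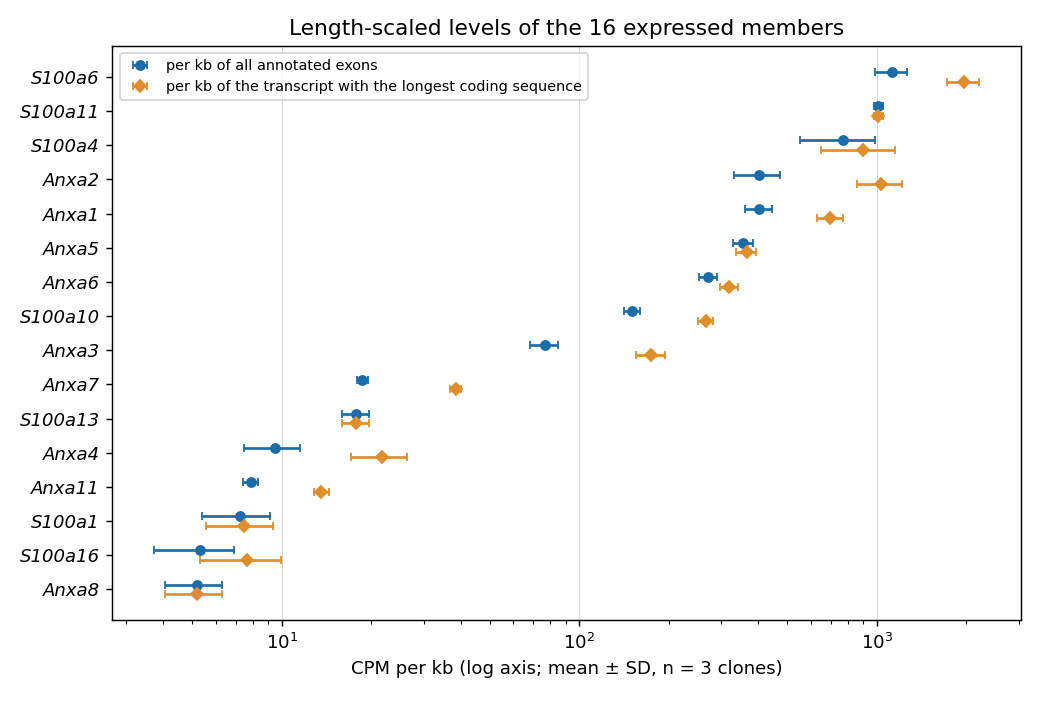
Mean level of the 16 expressed genes in CPM per kb (log axis) with SD over 3 clones, per kb of all annotated exons (circles) and per kb of the longest coding transcript (diamonds). S100a6, S100a11 and S100a4 lead on the first scale at 768 to 1127 CPM per kb, and Anxa2 moves from 402 to 1036 between the scales.

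S100A10 and annexin A2 form a complex in which an S100A10 dimer bridges annexin A2 molecules. The level of S100a10 relative to that of Anxa2, both per kb of exon, was 0.409, 0.334 and 0.397 in clones 1, 2 and 3, a mean log2 ratio of -1.40 ± 0.16 (SD, n = 3). S100a10 was thus lower than Anxa2 in every clone, by a similar amount in each. Per kb of the longest coding transcript the ratio was 0.260 and per count it was 0.123, so its direction held on all these scales while its size did not. For S100a11 against Anxa1, the ratio was 2.59, 2.69 and 2.31 per kb of exon (2.53 as the geometric mean) and 1.45 per kb of transcript, but 0.444 per count, since S100a11 is the shorter gene.

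In the mouse genome (GRCm38), 13 of the 14 S100 genes lie on chromosome 3. A first block of 11 genes spans 185 kb from 90511034 to 90695721, and a second block of S100a11 (93520488 to 93526287) and S100a10 (93555080 to 93564643) spans 44.2 kb, 2.82 Mb away. S100b is on the plus strand of chromosome 10 (76253853 to 76261159). In the first block 5 genes were expressed and 6 were not, and neighbours differed widely. S100a4 (90603771 to 90606045) and S100a6 (90612882 to 90624181), at 449 and 1540 CPM, flank S100a5 (90608523 to 90611780), all on the plus strand. S100a5 had a mean of 0.0548 CPM, although only 2477 bp separate it from S100a4 and 1101 bp from S100a6. S100A5 and S100A6 are identical at 44 of 89 aligned residues (49.4%), as are S100A4 and S100A6. The annexin genes are dispersed: Anxa2 is on the plus strand of chromosome 9 (69453620 to 69491795), while Anxa1 (chromosome 19, 20373428 to 20390944), Anxa6 (chromosome 11, 54979108 to 55033445) and Anxa5 (chromosome 3, 36448923 to 36475894) are transcribed from the minus strand. Anxa9 is also on chromosome 3, and Anxa7, Anxa8 and Anxa11 share chromosome 14.

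**Figure D3:**
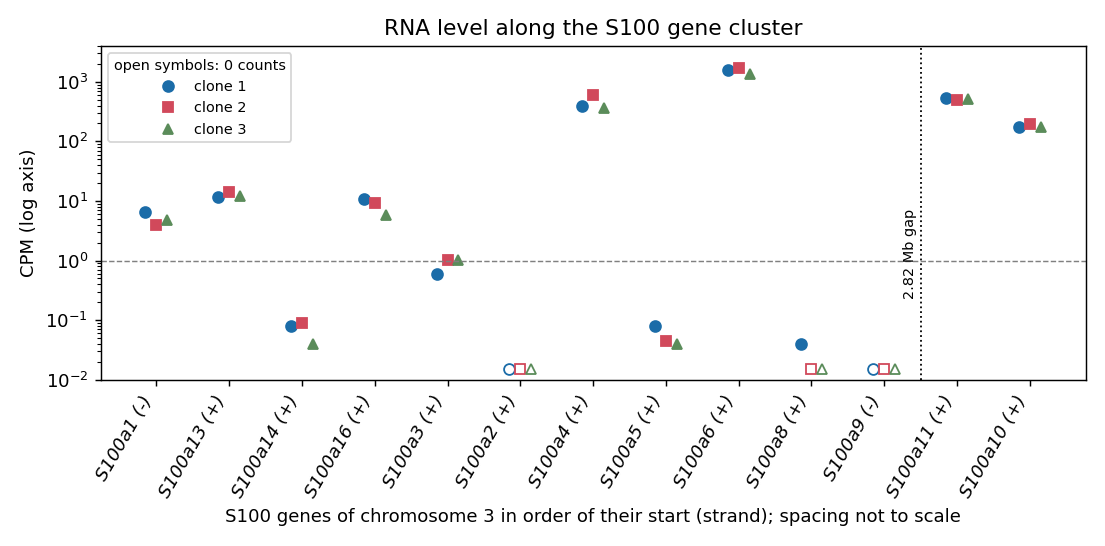
Level in CPM (log axis) of the 13 S100 genes of chromosome 3 in clones 1, 2 and 3, in order of their start with the strand in brackets and spacing not to scale. The dashed line marks 1 CPM, open symbols mark 0 counts and the dotted line the gap of 2.82 Mb. S100a5, with at most 2 counts, sits between S100a4 and S100a6, at 449 and 1540 CPM.

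Promoter windows of RefSeq (GRCm38.p6), from 250 bases before to 50 after the start, covered 20 of the 26 members with 27 windows, and the members not covered were Anxa3, Anxa6, Anxa13, S100a2, S100a10 and S100a14. The stretches printed here run 5′ to 3′ on the gene's strand and end at the RefSeq start, or before it where GENCODE places an exon. They were chosen as the neighbours S100a4, S100a5 and S100a6, whose levels differ widely within a short distance, and as the S100 and annexin genes with a match to the AP-1 motif among those over 100 CPM. Capitals mark the TATA box letters TATAAA or the AP-1 motif TGANTCA.
S100a4 promoter (chr3:90603620-90603769, plus strand): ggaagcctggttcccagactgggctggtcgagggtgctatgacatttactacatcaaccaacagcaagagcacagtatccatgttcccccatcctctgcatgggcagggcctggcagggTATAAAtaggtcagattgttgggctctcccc
S100a5 promoter (chr3:90608372-90608521, plus strand): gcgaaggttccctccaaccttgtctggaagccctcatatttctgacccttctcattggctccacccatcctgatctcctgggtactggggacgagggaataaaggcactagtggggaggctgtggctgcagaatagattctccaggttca
S100a6 promoter (chr3:90612744-90612881, plus strand): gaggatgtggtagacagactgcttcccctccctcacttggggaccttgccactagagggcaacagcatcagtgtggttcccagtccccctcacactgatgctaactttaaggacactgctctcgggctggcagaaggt
S100a11 promoter (chr3:93520346-93520487, plus strand): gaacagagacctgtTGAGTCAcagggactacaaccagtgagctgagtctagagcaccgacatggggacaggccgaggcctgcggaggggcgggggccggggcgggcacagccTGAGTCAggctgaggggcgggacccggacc
Anxa2 promoter (chr9:69453533-69453619, plus strand): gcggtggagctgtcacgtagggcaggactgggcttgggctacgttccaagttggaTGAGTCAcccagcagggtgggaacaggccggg

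Searched on both strands, TATAAA was present in 7 of the 27 member windows (Anxa1, Anxa2, Anxa10, S100a3, S100a4, S100a8 and S100a9), against 13.6% of the 32851 windows of the genome. Its first base stood 31 bases before the start in S100a4, 30 in S100a8 and 32 in Anxa1 and Anxa10, but 17 in Anxa2 and 52 in S100a3, and in S100a9 it was the first base after the start. Genes with this match therefore ranged from 1499 CPM for Anxa2 to no counts for Anxa10 and S100a9, and the S100a6 window had none. TGANTCA was present in 4 member windows, those of Anxa2, Anxa10, S100a11 and S100a16, against 7.81% of all windows. In S100a11 its matches began 136 and 38 bases before the start, and in Anxa2 95 bases before it. The GC box GGGCGG was present in 9 member windows, against 35.7% of all windows. In the sequences printed, matches of different motifs do not overlap. The windows of 1 gene can share bases, and a match describes letters only.

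S100a1 and S100a13 lie head to head on opposite strands, with 42 bases between their annotated starts, and the sequence is given because 1 short stretch lies upstream of both.
S100a1 to S100a13 interval (chr3:90514393-90514434, plus strand): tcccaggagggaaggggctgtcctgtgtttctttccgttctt
The RefSeq windows of the pair share 204 bases. The level of S100a1 relative to S100a13, per kb of exon, was 0.566, 0.283 and 0.405 in clones 1, 2 and 3 (0.402 as the geometric mean). S100a13 was the higher of the pair in every clone, and clone 2 had the lowest ratio.

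To ask how stable the levels were between clones, the 3 counts of each gene were set against the scaled library sizes with a Pearson chi-square test, for genes that had 10 or more counts in each library. The test compares libraries, since each clone has 1. Of 18 members tested, 15 differed at an adjusted p under 0.05 (83.3%), against 62.5% of the 12218 genes tested. The test finds smaller differences in abundant genes: all 10 members with a mean of at least 100 CPM were called, where 90.9% of all such genes were. The size of the differences was close to that of all genes. The median fold of the highest over the lowest clone was 1.26 over the tested members and 1.24 over all genes tested, and for genes of at least 100 CPM it was 1.19 and 1.16. Anxa9 alone was called and differed by at least 2-fold (2.20-fold, adjusted p = 0.0129), against 7.93% of all genes tested, and it rests on 19 to 46 counts.

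The largest differences among the abundant members were those of S100a4 (1.65-fold, highest in clone 2), Anxa2 (1.35-fold, highest in clone 2) and S100a6 (1.28-fold, lowest in clone 3, adjusted p = 4.42e-242). Among the lower genes, S100a16 differed 1.89-fold (adjusted p = 1.04e-08), S100a1 1.65-fold (adjusted p = 0.000948), Anxa8 1.53-fold (adjusted p = 6.89e-05) and Anxa4 1.51-fold (adjusted p = 2.40e-20). Small differences were also called, such as that of S100a11 (1.07-fold, adjusted p = 1.57e-06) and Anxa7 (1.08-fold, adjusted p = 0.0132). S100a3 (1.71-fold), S100a13 (1.21-fold) and Anxa11 (1.13-fold) did not pass, with adjusted p = 0.249, 0.0640 and 0.0845. Of the 15 called members, 8 were lowest in clone 2 (2 S100 and 6 annexin genes, 53.3% of those called), against 34.0% of all called genes, which is 21.3% of all genes tested. A further 6 were highest in clone 2 (3 S100 and 3 annexin genes), close to the 37.5% of all called genes, or 23.5% of all genes tested. S100a16 had clone 2 in the middle.

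The called members highest in clone 2 were S100a4, S100a6, S100a10, Anxa2, Anxa8 and Anxa7, the last with clone 1 level with clone 2, and those lowest were S100a1, S100a11, Anxa1, Anxa3, Anxa4, Anxa5, Anxa6 and Anxa9. Both sets therefore hold abundant genes and partners: S100a10 was highest in clone 2 with Anxa2, and S100a11 was lowest there with Anxa1. The differences of S100a10 (1.11-fold) and S100a11 (1.07-fold) were small, and not all partners moved together. Myh9 was highest in clone 1, whereas S100a4 was highest in clone 2, and Cacybp was highest in clone 3, where S100a6 was lowest. Macrophages also express S100a4, S100a6 and several annexin genes, and the macrophage markers moved with clone 2 in the way given above, with Lyz2 the most abundant (3433, 13074 and 2490 counts); their part in these differences was not tested. Without clone 2, 10 of 18 tested members differed, against 45.4% of all genes tested. Here Anxa4, Anxa5, Anxa8, Anxa9, S100a10 and S100a11 were lost and Anxa11 was gained. Without clone 1, 13 of 18 differed, against 31.7% of all genes tested, with Anxa9 and S100a1 lost. Without clone 3, 13 of 18 differed, against 53.0%, with Anxa6, Anxa7 and S100a16 lost and S100a13 gained.

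**Figure D4:**
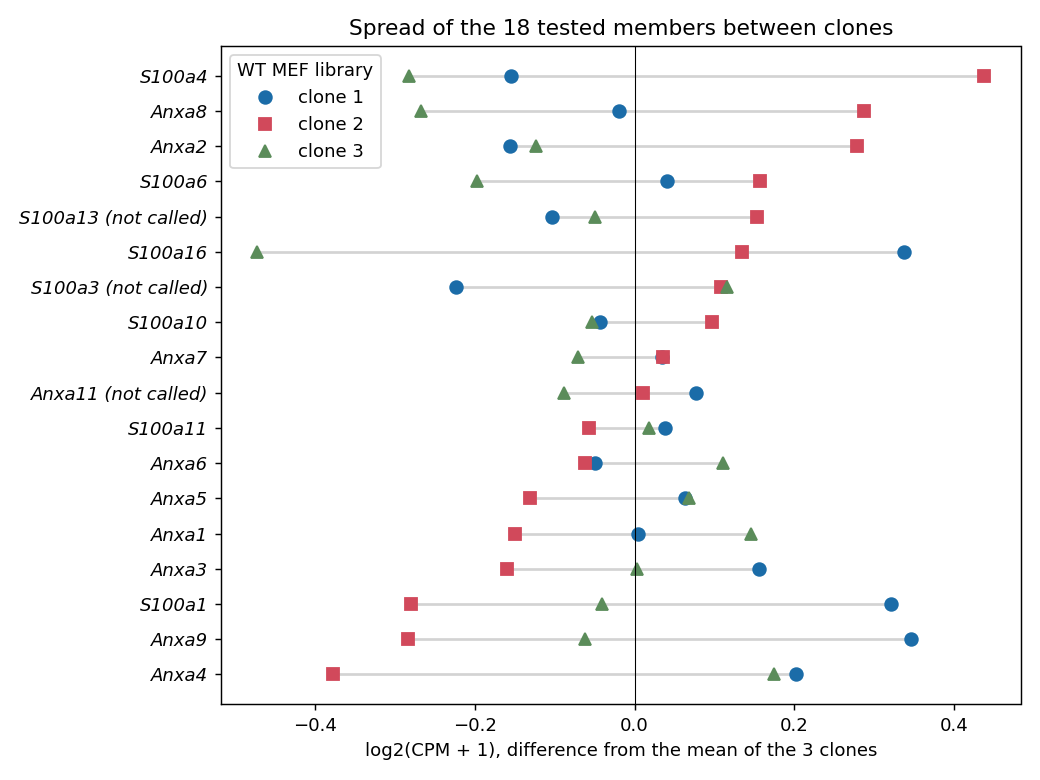
Difference in log2(CPM + 1) between each library and the gene's own mean for the 18 tested genes, ordered by the value of clone 2, where each point is 1 library and each bar the range. S100a4, Anxa8 and Anxa2 have clone 2 farthest to the right, Anxa4, Anxa9 and S100a1 have it farthest to the left, and 3 genes were not called.

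Of 38 genes encoding binding partners, receptors and related calcium-binding or membrane repair proteins, 29 were expressed, with a median of 130 CPM. Of 30 tested, 20 differed between libraries (66.7%, against 62.5% of all genes tested), 1 of them by 2-fold or more (Gca), with a median of 1.15-fold between the extreme clones, against 1.24 over all genes tested. Partners of the S100A10 and annexin A2 complex included Ahnak, a giant scaffold protein (1284 ± 195 CPM, SD, n = 3), and the tissue plasminogen activator gene Plat (130 ± 12.1), while Plg, the plasminogen gene, and the channel gene Trpv6 had no counts in any clone. Myh9, the heavy chain of the myosin bound by S100A4, had 3253 ± 201 CPM, and S100a4 stood 2.98-fold above it per kb of exon. The ratio of S100a4 to Myh9 was 2.01 per kb of transcript but 0.135 per count, so its direction depends on the scale. The S100A6 partner gene Cacybp had 48.5 ± 10.1 CPM and was highest in clone 3, where S100a6 was lowest. Fgf1, whose product S100A13 helps to export, had 9, 4 and 8 counts.

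The receptors for secreted S100 proteins differed in level. Bsg and Mcam had 918 ± 66.0 and 896 ± 42.2 CPM (SD, n = 3), whereas Ager, the receptor for advanced glycation end products, had 105, 51 and 62 counts (2.98 ± 1.08 CPM) and Tlr4 6.86 ± 1.44 CPM. The annexin A1 receptor genes Fpr1 and Fpr2 had at most 8 and 3 counts in any clone. Among membrane repair genes, Cav1 had 618 ± 121 CPM and Dysf, the dysferlin gene, 162 ± 45.9 CPM, highest in clone 1 at 5177 counts. The penta-EF-hand genes Pdcd6 (44.0 ± 0.764 CPM), Sri (71.8 ± 1.20), Capn1 and Capns1 were not called as differing. Pef1 (1.28-fold), Capn2 (1.13-fold) and Gca (2.58-fold) of the same group were called. S100 genes that the choice by symbol left out were S100g and S100z, both with no counts, and S100a7a (12, 24 and 17 counts). S100pbp, which encodes an S100P-binding protein and no S100 protein, was expressed (206, 253 and 302 counts, 10.49 ± 1.94 CPM).

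The predicted proteins differ in their matches to sequence patterns. A pattern for the calcium-binding loop of the EF hand matched once in S100A1, S100A4, S100A5, S100A6, S100A8, S100A11, S100A16 and S100B and not in the other 6, S100A10 included. A protein without a match can still bind calcium, because the pattern is strict. S100A9, part of the calcium-binding complex calprotectin, had no match either. Of the 7 expressed S100 genes, 5 encode a protein with a match (S100a1, S100a4, S100a6, S100a11 and S100a16). The annexin repeat pattern matched 4 times in most annexins, 8 times in annexin A6 (673 residues) and once in annexins A9 and A10, and neither Anxa9 nor Anxa10 reached 1 CPM in every clone. Anxa13 has no coding sequence in the annotation used and was not included. The closest pairs by identity were S100A1 and S100B (56.5%) among S100 proteins and annexins A4 and A11 (58.3%) and A5 and A6 (58.0%) among annexins.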

How the data were processed

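RNA from asynchronous WT MEFs of 3 clones was sequenced as 86-nt single-end reads. Following the methods of the study, alignment by the authors used TopHat 2.0.0 (with Bowtie 0.12.7, and Samtools at version 0.1.16), up to 2 mismatches per read and up to 5 positions in the genome, and HTSeq gave the counts. The methods name mm10 as the build, while the submitters' processing notes name mm9. Neither the HTSeq version nor its annotation and strandedness are given in the sources used here. The deposited values are raw counts per gene, with 1 column per clone. Reads with several positions in the genome, overlapping genes and 2 possible builds can therefore change the count of a gene in ways the table does not show.

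CPM were computed with TMM library sizes (edgeR 4.0.16, R 4.3.3), and expression was called where all 3 clones had at least 1 CPM. With 1 group no edgeR contrast exists, so differences between libraries were tested by Pearson chi-square with 2 degrees of freedom over the genes with 10 or more counts in each library, with Benjamini-Hochberg adjustment over all of them and a call at an adjusted p under 0.05. The p-values test whether the counts depart from the scaled library sizes by more than counting error. They depend on the number of counts and do not measure the size of the spread. Such a departure may be technical, and with 1 library per clone its source cannot be told. Wilson and Poisson intervals (95%) and the limit of 3 counts describe counting error alone, as molecular identifiers were not used. Gene models came from GENCODE M21 (GRCm38), which gave an exon length for 21117 of 21782 genes. Promoters came from RefSeq (GRCm38.p6). Proteins were translated from the longest annotated coding sequences, aligned with Biopython 1.88 (BLOSUM62, global) and searched with PROSITE-style patterns, and where that coding sequence comes from a longer isoform the motif counts can differ. Python 3.11.15, numpy 2.4.6, pandas 2.3.3 and scipy 1.17.1 were used. The chi-square procedure was tested on simulated Poisson counts with changes put into some genes. Such counts have no other spread beyond counting error, so the simulation does not cover the spread between real libraries.

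The members, the partner list, the marker lists and the alternatives were chosen with earlier results of these data known. All 26 members are named, partners are named where their member is described, and markers only as lists or by their most abundant or defining genes. The alternatives comprised size factors from DESeq2 1.42.0, unscaled totals, other limits on low counts, other lengths, a total without the 100 highest genes and leaving out each clone. Of the markers listed, Adgre1, Ly6g and Flg were not analysed here.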

Additional observations from a re-analysis of the deposited data

How the results depend on the processing

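No paired analysis was possible because the libraries form 1 group. The number of expressed members (16) stayed between 15 and 21 under other limits and between 16 and 17 on leaving out a clone. The number of differing members (15) ran from 10 to 13 on leaving out a clone, was 14 with total counts, where Anxa7 was lost, and 13 with at least 100 counts in every clone. DESeq2 size factors changed none of these counts. The number differing by at least 2-fold (1, Anxa9) fell to 0 with a pseudocount of 1 CPM and no filter, and ran from 0 to 1 on leaving out a clone. With a total without the 100 highest genes, the share of counts became 0.399% for S100 genes and 0.672% for annexins. The share of S100a6 in its family was 56.7% per count and 47.0% per kb of transcript, and that of Anxa2 32.8% and 38.7%. The log2 ratio of S100a10 to Anxa2 was -3.02 per count and -1.95 per kb of transcript, and it ran from -1.46 to -1.31 on leaving out a clone. These shifts follow from the length or total used. S100b, S100a5, S100a8, S100a14 and Anxa13, with under 10 counts in at least 1 clone, were tested only with no filter and were not called.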
